A study of Mus musculus with 2 samples.

Results

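The nuclear genes for respiratory complexes II to V were described across the poly(A) RNA of an erythroid cell line. The members were defined by gene symbol, as the protein-coding genes named Sdha to Sdhd, Uqcr, Uqcc, Cyc1, Cox4 to Cox8 and Atp5. Earlier results of these data were known when they were chosen. The symbol pattern found 52 entries in the GENCODE M21 annotation, and 51 of them had a row among the 21474 protein-coding genes of the deposited tables. The remaining entry, a second gene model named Atp5o, was not analysed here. By symbol, 4 members belong to complex II, 9 to complex III, 3 are assembly factors of complex III, 18 belong to complex IV and 17 to complex V.

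The RNA came from G1E-ER4, an immortalized mouse erythroid line described by its labels as erythroid cells with Gata1 restored. In such cells GATA1, the transcription factor that drives red cell differentiation, is supplied as a fusion protein that estrogen receptor ligands switch on. Both libraries came from cells kept for 30 h in 17beta-estradiol at 10 nM. They carry the labels biological replicate 1 and 2 of a single group, and no untreated cells were analysed here, so the values describe a state and not a response. The labels say nothing further on separate cultures, so the spread between the libraries may be technical.

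Complex II oxidises succinate and passes the electrons to ubiquinone. Complex III passes them on to cytochrome c, complex IV reduces oxygen with them, and complex V makes ATP from the proton gradient. Most subunits are encoded in the nucleus and a few in mitochondrial DNA. Several complex IV subunits exist as a widely expressed form and a form known from heart, skeletal muscle, lung or testis. Maturing red cells use mitochondria for heme synthesis and later lose them.

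The libraries held 73681318 expected counts in replicate 1 and 56056404 in replicate 2. Expected counts are estimated numbers of fragments per gene. Levels are in TPM, which corrects the counts for transcript length and scales each library to the same sum. All 7 erythroid markers, globin genes included, reached 1 TPM in both libraries. Of 8 heart and skeletal muscle markers none did, with a summed level of 0.21 TPM in replicate 1 and 0.18 in replicate 2. Myh7 was the highest of the 8 at 0.11 TPM in both libraries, and Myl2, Ckmt2 and Tnnt2 were at 0. All 7 testis markers had 0 counts. Myeloid markers differed between the libraries, with a sum of 0.31 TPM in replicate 1 and 10.9 in replicate 2 over 5 genes, S100a8 at 0.

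The members together held 1.46% of TPM in replicate 1 and 1.53% in replicate 2, or 0.757% and 0.755% of counts. Of the 51, 45 reached 1 TPM in both libraries, against 35.3% of all protein-coding genes. At 10 TPM the count was 37 members, against 20.4% of protein-coding genes. At 100 TPM it was 16 members, against 4.32% of protein-coding genes. The 6 members below 1 TPM were Cox4i2, Cox6a2, Cox7b2, Cox8b and Cox8c of complex IV and Atp5s of complex V. The median member had 43.8 TPM in replicate 1 and 37.2 in replicate 2, while the median over the 7570 protein-coding genes that reached 1 TPM was 15.7 and 14.9 TPM. Members were spread over several orders of magnitude, with genes of the same enzyme at opposite ends. In bulk RNA, fewer cells that express a gene and less RNA per cell cannot be told apart.

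**Figure D1:**
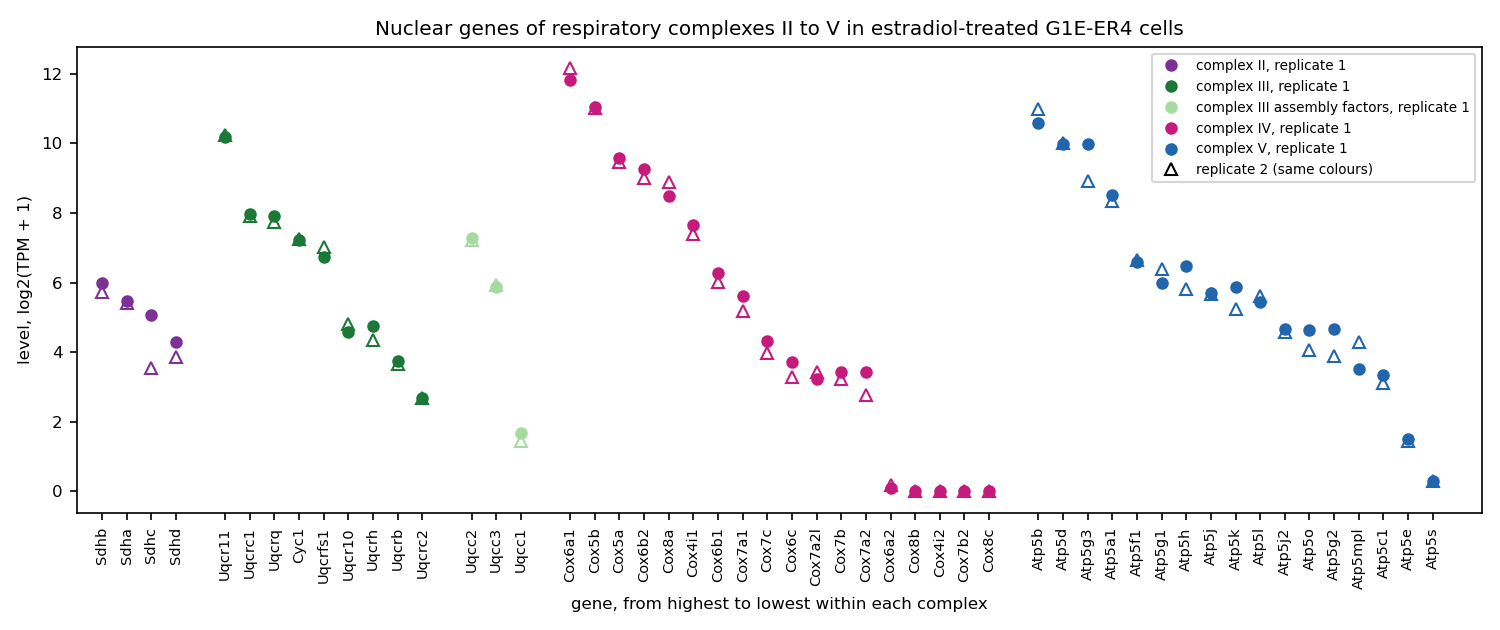
Level of each of the 51 genes as log2(TPM + 1) in replicate 1 (filled circles) and replicate 2 (open triangles), ordered by mean within each complex. Complex IV spans the widest range, from Cox6a1 at 3597 and 4586 TPM to 4 genes at 0, and complex II the narrowest.

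Complex III had the highest median of the 4 complexes, 105 TPM in replicate 1 and 128 in replicate 2. Complex V followed with 50.6 and 47.8 TPM, complex II with 38.3 and 27.5 TPM, and complex IV with 15.5 and 12.3 TPM. By summed TPM the order was another. Complex IV held 7810 TPM in replicate 1 and 8660 in replicate 2, complex V 4427 and 4344 TPM, complex III 1983 and 2008 TPM, and complex II 158 and 118 TPM. On transcripts annotated as protein-coding, complex V held 1884 TPM in replicate 1 and 1736 in replicate 2, below complex III at 1937 and 1965 TPM. In complex IV, Cox6a1 and Cox5b alone carried 73.0% of the sum in replicate 1 and 76.9% in replicate 2. The medians depended on which genes and transcripts were counted and on GC content. Adjusted for GC content, complex III no longer had the highest median. Its median was 65.2 TPM as a mean of both libraries (117 TPM unadjusted), against 67.6 TPM for complex V (49.2 TPM unadjusted). The adjusted complex III median was the value of Cyc1, adjusted at 60.5% GC, the mean over its annotated transcripts. The transcript that held all Cyc1 TPM had 55.7% GC, so this change of order is uncertain. Without the members under 1 TPM the complex IV median was 70.4 TPM as a mean of both libraries, against 13.9 TPM with them. On protein-coding transcripts alone the complex II median was 18.9 TPM against 32.9 TPM, and the complex V median 23.7 TPM against 49.2 TPM.

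In complex II, the catalytic subunits were near each other. Sdha, the flavoprotein that holds the succinate site, had 43.8 TPM in replicate 1 and 41.4 in replicate 2, and Sdhb, the iron-sulfur protein, had 63.1 and 52.3 TPM. Their log2 ratio, Sdha over Sdhb, was -0.42 with a 95% interval of -0.84 to -0.01. This ratio, like the log2 ratios of pairs below, and its interval come from a limma fit of log2(TPM + 1). The fit covered the 7570 expressed protein-coding genes, with the spread of each gene moderated along a trend with level. By this measure, 10 of 12 pairs of members that could be fitted had an interval without 0, while 86.8% of all gene pairs did, so the count is no result about these genes. The Sdha ratio depended on the values used: adjusted for GC content it was 0.45, with an interval of 0.02 to 0.89, and on protein-coding transcripts Sdha was 14.6-fold lower than Sdhb in replicate 1 and 20.3-fold lower in replicate 2. Of the membrane anchors that hold the ubiquinone site, Sdhc had 32.9 TPM in replicate 1 and 10.6 in replicate 2, and Sdhd had 18.7 and 13.5 TPM. Sdhc was above Sdhd in replicate 1 and below it in replicate 2. Their log2 ratio, Sdhc over Sdhd, was 0.23 (interval -0.67 to 1.14), so a difference was not resolved.

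The core proteins of complex III were far apart. Uqcrc1 (core protein 1) had 249 TPM in replicate 1 and 242 in replicate 2, while Uqcrc2 (core protein 2) had 5.37 TPM in each. The log2 ratio on TPM + 1, Uqcrc1 over Uqcrc2, was 5.27 (interval 4.87 to 5.68), and 4.03 after adjustment for GC content. In plain TPM, Uqcrc1 was 46.3-fold higher in replicate 1 and 45.0-fold higher in replicate 2. Uqcrc2 was the lowest of the 9 complex III genes. In unadjusted TPM the redox subunits stood close together. Cyc1 (cytochrome c1) had 150 TPM in replicate 1 and 151 in replicate 2, and Uqcrfs1 (the Rieske iron-sulfur protein) had 105 and 128 TPM. Adjusted for GC content, the means of both libraries were 65.2 TPM for Cyc1 and 159 TPM for Uqcrfs1. The Cyc1 value has the limit given above. Among the small subunits, which surround the core, Uqcr11 was highest at 1174 TPM in replicate 1 and 1209 in replicate 2. Uqcrq, which lies next to cytochrome b, had 238 and 215 TPM. Uqcr10, Uqcrh (the hinge protein) and Uqcrb (the ubiquinone-binding protein) ranged between 11.7 and 27.2 TPM. The small subunits thus spanned 94.8-fold in replicate 1 and 103-fold in replicate 2.

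The assembly factors of complex III repeated this spread. Uqcc1 and Uqcc2 act together on newly made cytochrome b. Uqcc1 had 2.18 TPM in replicate 1 and 1.73 in replicate 2, and Uqcc2 had 153 and 149 TPM. The log2 ratio on TPM + 1, Uqcc1 over Uqcc2, was -5.69 (interval -6.08 to -5.30), -4.94 after adjustment for GC content and -5.05 on posterior mean TPM. The added 1 shrinks ratios of low genes. In plain TPM, Uqcc1 was 70.3-fold lower in replicate 1 and 86.2-fold lower in replicate 2, which lies outside that interval. On protein-coding transcripts, Uqcc1 had 0.11 TPM in replicate 1 and 0.13 in replicate 2, and the log2 ratio on TPM + 1 was -7.09. That value is set largely by the added 1. In plain TPM of these transcripts, Uqcc1 was 1393-fold lower in replicate 1 and 1147-fold lower in replicate 2. Uqcc3, an assembly factor of the same enzyme, had 57.9 and 60.3 TPM.

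Among the widely expressed complex IV genes, Cox6a1 was highest, at 3597 TPM in replicate 1 and 4586 in replicate 2. It encodes the common form of a small regulatory subunit. Cox5a and Cox5b are unrelated subunits on the matrix side of the enzyme. Cox5a had 758 TPM in replicate 1 and 702 in replicate 2, and Cox5b had 2102 and 2073 TPM. The log2 ratio, Cox5a over Cox5b, was -1.52 (interval -1.95 to -1.08). The ratio was -0.27 (interval -0.78 to 0.24) after adjustment for GC content, which no longer left out 0. That adjustment used the mean GC content of each gene's annotated transcripts, 46.2% for Cox5a and 54.8% for Cox5b. The transcript with the most TPM had 49.0% GC in each of these genes. Cox8a, a small membrane subunit, followed at 357 and 471 TPM. Cox4i1, an early partner of the catalytic subunit in assembly, had 200 and 167 TPM. The other widely expressed membrane subunits were far lower. Cox7c had 19.0 TPM in replicate 1 and 14.8 in replicate 2, Cox6c had 12.1 and 8.75 TPM, and Cox7b had 9.87 and 8.41 TPM. The 10 widely expressed genes spanned 366-fold in replicate 1 and 796-fold in replicate 2.

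Of the 7 tissue-type complex IV genes, 2 were well above the form known from most tissues. Cox6b1 and Cox6b2 encode the subunit that joins the 2 monomers of the enzyme, and Cox6b2 is known as the testis form. Cox6b1 (mm10 chromosome 7, 30616861 to 30626151, minus strand) was at 76.9 TPM in replicate 1 and 63.8 in replicate 2. Cox6b2 (chromosome 7, 4751792 to 4753094, minus strand) had 613 and 515 TPM, from 17510 and 10613 counts. The libraries agreed closely on the ratio. Cox6b1 over Cox6b2 was -2.98 on the log2 scale (interval -3.41 to -2.55), which placed Cox6b1 7.96-fold lower in replicate 1 and 8.07-fold lower in replicate 2. On protein-coding transcripts Cox6b1 was 3.85-fold and 4.19-fold lower. Cox6b2 thus held 88.8% of the family's TPM in replicate 1 and 89.0% in replicate 2, or 79.4% and 80.8% on protein-coding transcripts. Prm1, Prm2, Tnp1, Tnp2, Ldhc, Pgk2 and Acrv1, the testis markers, had 0 counts in both libraries.

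Cox7a1 is the heart and skeletal muscle form of a small subunit, and Cox7a2 the form known from liver and most tissues. Cox7a2 (chromosome 9, 79755361 to 79759878, minus strand) was at 9.83 TPM in replicate 1 and 5.76 in replicate 2, from 439 and 192 counts. Cox7a1 (chromosome 7, 30184144 to 30186078, plus strand) had 48.3 and 35.4 TPM, from 752 and 390 counts. The log2 ratio, Cox7a2 over Cox7a1, was -2.31 (interval -2.89 to -1.73). Adjusted for GC content it was -1.06, and the interval of -1.63 to -0.50 still left out 0. That adjustment used means over annotated transcripts, 46.3% GC for Cox7a2 and 55.0% for Cox7a1. The transcript that held all TPM of its gene had 51.9% GC for Cox7a2 and 54.7% for Cox7a1. Cox7a1 held 83.1% of the TPM of the pair in replicate 1 and 86.0% in replicate 2. Ckm, the muscle creatine kinase, had 0 counts in replicate 1 and 1 count in replicate 2. The highest of the 8 muscle markers, Myh7, had 0.11 TPM in both libraries, from 51 and 35.9 counts. Cox7a2l, a relative of both that takes part in joining complexes III and IV into supercomplexes, had 8.43 TPM in replicate 1 and 9.86 in replicate 2. It was below Cox7a2 in replicate 1 and above it in replicate 2, and the log2 ratio, Cox7a2l over Cox7a2, was 0.24 (interval -0.32 to 0.81).

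The other 5 tissue-type forms were at or near 0. Cox4i2 (lung form), Cox7b2 (testis form), Cox8b (heart and skeletal muscle form in rodents) and Cox8c (testis form) had 0 counts in both libraries. With a floor of 3 counts per library, Cox4i1 was at least 1774-fold higher than Cox4i2. On the same floor Cox7b was at least 59.4-fold higher than Cox7b2, and Cox8a was at least 1711-fold higher than Cox8b and 2736-fold higher than Cox8c. Cox6a2 (heart and skeletal muscle form) had 3 counts in replicate 1 and 4 in replicate 2. The ratio of Cox6a1 to Cox6a2 was 44950 in replicate 1 (95% counting interval 15381 to 217968) and 31899 in replicate 2 (12458 to 117074). Intervals and floors of this kind cover counting error only. The muscle forms were therefore split, with Cox7a1 present and Cox6a2 and Cox8b at or near 0.

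**Figure D2:**
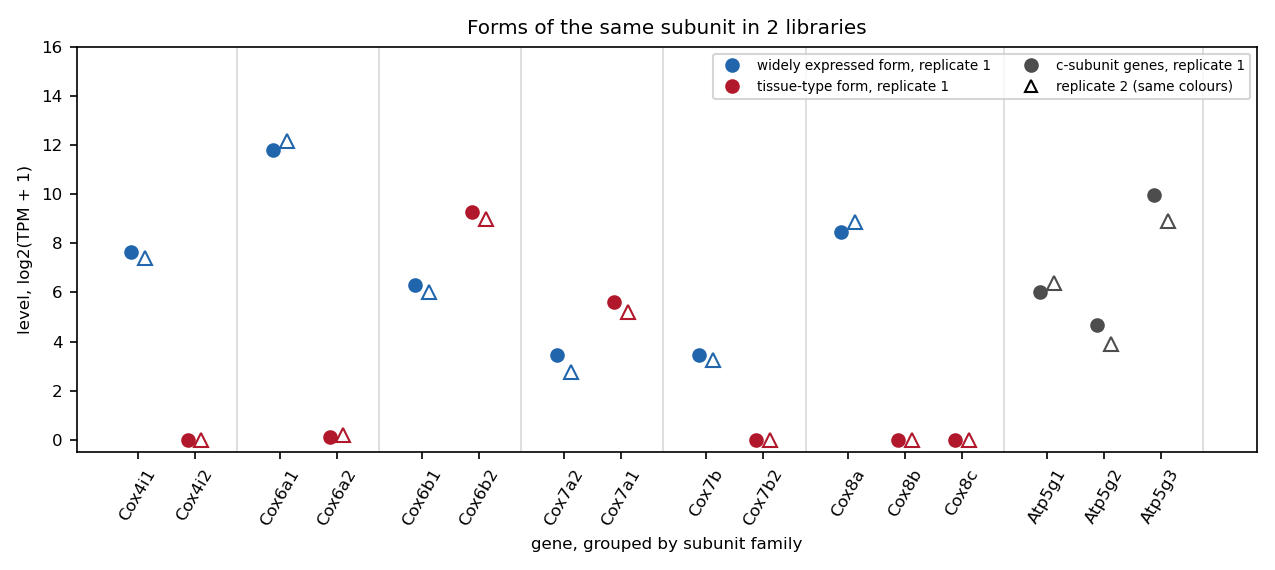
Level as log2(TPM + 1) of the forms of 6 complex IV subunits and of the c subunit of complex V, in replicate 1 (filled circles) and replicate 2 (open triangles). The tissue-type form is above the widely expressed form for Cox6b2 and Cox7a1 and at or near 0 in the other families.

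The sequences before the start sites of the genes in both pairs whose tissue-type form was the higher one are shown beside that of Cox6a1, the highest member. They are the 250 bases upstream of the RefSeq start site in build GRCm38.p6, on the strand of the gene and 5′ to 3′. Their positions are chr7:30626115-30626364 (minus strand) for Cox6b1, chr7:4753095-4753344 (minus strand) for Cox6b2, chr9:79759854-79760103 (minus strand) for Cox7a2, chr7:30183921-30184170 (plus strand) for Cox7a1 and chr5:115348959-115349208 (minus strand) for Cox6a1. Capitals mark exact matches, on either strand, to the NRF1 motif (GCGC and TGCGC with any base between them) or to the ETS motif CCGGAAG, the core bound by GABPA.
Cox6b1 promoter: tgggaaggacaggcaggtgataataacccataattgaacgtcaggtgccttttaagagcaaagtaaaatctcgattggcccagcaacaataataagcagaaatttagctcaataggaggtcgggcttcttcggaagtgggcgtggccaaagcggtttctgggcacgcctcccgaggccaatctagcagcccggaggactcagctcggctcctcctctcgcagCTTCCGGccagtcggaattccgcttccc
Cox6b2 promoter: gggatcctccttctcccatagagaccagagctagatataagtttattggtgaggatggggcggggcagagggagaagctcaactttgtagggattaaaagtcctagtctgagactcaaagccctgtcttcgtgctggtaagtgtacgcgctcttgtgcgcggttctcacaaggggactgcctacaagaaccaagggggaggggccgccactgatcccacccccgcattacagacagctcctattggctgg
Cox7a2 promoter: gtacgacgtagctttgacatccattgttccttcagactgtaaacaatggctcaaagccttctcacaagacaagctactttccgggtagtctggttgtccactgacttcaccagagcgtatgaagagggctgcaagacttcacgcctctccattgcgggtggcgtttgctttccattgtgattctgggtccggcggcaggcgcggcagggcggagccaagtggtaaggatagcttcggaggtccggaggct
Cox7a1 promoter: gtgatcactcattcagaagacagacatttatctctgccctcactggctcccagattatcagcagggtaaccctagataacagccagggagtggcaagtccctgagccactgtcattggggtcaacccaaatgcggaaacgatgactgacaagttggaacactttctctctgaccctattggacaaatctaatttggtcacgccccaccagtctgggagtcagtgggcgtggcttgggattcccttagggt
Cox6a1 promoter: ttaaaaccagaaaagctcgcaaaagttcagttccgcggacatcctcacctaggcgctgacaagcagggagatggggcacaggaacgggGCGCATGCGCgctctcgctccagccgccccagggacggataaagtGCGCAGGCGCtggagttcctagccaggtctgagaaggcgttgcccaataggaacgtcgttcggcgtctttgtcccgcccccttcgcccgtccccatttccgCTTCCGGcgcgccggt

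The printed Cox6b1 sequence held 1 ETS match and that of Cox6b2 none of the motifs searched. Neither Cox7a2 nor Cox7a1 held a match. In Cox6a1 the first NRF1 match reads the same on both strands, a second NRF1 match lies on the minus strand, and an ETS match lies 16 bases before the start site. Their GC content was 54.0% for Cox6b1, 54.8% for Cox6b2, 54.8% for Cox7a2, 51.2% for Cox7a1 and 62.8% for Cox6a1.

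RefSeq promoters, each 250 bases before to 50 bases after a start site, were found for 39 of the 51 members. The 12 without one were Atp5a1, Atp5mpl, Cox4i1, Cox4i2, Cox6a2, Cox6c, Cox8c, Cyc1, Sdhc, Uqcrb, Uqcrc2 and Uqcrq. NRF1 and GABPA are regulators known for nuclear genes of mitochondrial proteins. The NRF1 motif was found in 28.2% of the matched members (11 genes) and in 7.17% of 17492 protein-coding genes. The 11 include Cox6a1, Uqcrc1, Uqcc2 and Sdha among others of complexes II to V. The ETS motif was found in 30.8% of members (12 genes), Cox8a, Uqcr11 and Atp5j among them, and in 12.9% of protein-coding genes. The YY1 motif, AAGATGG followed directly by CGGC, was found in none of the 39 and in 1.06% of protein-coding genes. The TATAAA motif was found in 7.69% of members (Atp5l, Cox7b2 and Cox8b) and in 14.8% of protein-coding genes. A match of letters does not show binding.

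In complex V, the catalytic head is made of the alpha, beta, gamma, delta and epsilon subunits. Atp5a1 (alpha) had 364 TPM in replicate 1 and 325 in replicate 2, and Atp5b (beta, which carries the catalytic sites) had 1549 and 2051 TPM. Atp5a1 over Atp5b was -2.37 on the log2 scale (interval -2.84 to -1.90), although the assembled head holds alpha and beta in equal number. On protein-coding transcripts, Atp5a1 was 1.57-fold lower than Atp5b in replicate 1 and 2.18-fold lower in replicate 2, against 4.25-fold and 6.30-fold lower over all transcripts. Atp5d (delta) had 1016 TPM in replicate 1 and 1028 in replicate 2. The other head subunits were low. Atp5c1 (gamma, the rotating shaft) had 9.22 and 7.74 TPM, and Atp5e (epsilon) had 1.84 and 1.73 TPM, from 116 and 74 counts.

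The membrane ring of complex V is built of the c subunit, for which 3 genes encode one mature protein. Atp5g1 had 63.1 TPM in replicate 1 and 82.9 in replicate 2, Atp5g2 had 24.4 and 14.0 TPM, and Atp5g3 had 1005 and 486 TPM. Atp5g3 held 92.0% of the c-subunit TPM in replicate 1 and 83.4% in replicate 2, or 82.6% and 72.4% on protein-coding transcripts. The order was the same in both libraries. The log2 ratios were 1.91 for Atp5g1 over Atp5g2 (interval 1.33 to 2.50), -3.25 for Atp5g1 over Atp5g3 (-3.93 to -2.57) and -5.17 for Atp5g2 over Atp5g3 (-5.93 to -4.40). By library, Atp5g1 was 15.9-fold lower than Atp5g3 in replicate 1 and 5.86-fold lower in replicate 2. On protein-coding transcripts the ratios to Atp5g3 were -2.15 for Atp5g1 and -4.06 for Atp5g2. Adjusted for GC content, Atp5g2 over Atp5g3 was -6.79 and Atp5g1 over Atp5g2 was 3.0. Counts of Atp5g1 and Atp5g2 were not whole, so some fragments were divided between genes.

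The peripheral stalk, which holds the head still, was expressed at intermediate levels. Atp5f1 (subunit b) had 95.4 TPM in replicate 1 and 100 in replicate 2, Atp5h (subunit d) had 88.6 and 55.8 TPM, Atp5j (F6) had 50.6 and 49.6 TPM, and Atp5o (OSCP) had 24.0 and 15.8 TPM. Of the small membrane subunits, Atp5k (subunit e) had 57.4 TPM in replicate 1 and 37.2 in replicate 2, and Atp5l (subunit g) had 42.6 and 47.8 TPM. Atp5j2 (subunit f) had 24.3 and 23.0 TPM. Atp5mpl, a small proteolipid of the enzyme, had 10.5 TPM in replicate 1 and 18.8 in replicate 2. On protein-coding transcripts the order of the stalk genes was another, with Atp5j at 38.2 TPM in replicate 1 and 41.0 in replicate 2, Atp5o at 23.8 and 15.5 TPM, Atp5f1 at 15.3 and 19.2 TPM, and Atp5h at 10.1 and 8.34 TPM. Over all transcripts the 4 stalk genes spanned 3.98-fold in replicate 1 and 6.34-fold in replicate 2, and the 5 head genes spanned 842-fold and 1185-fold. Atp5s, a coupling factor, was the lowest of complex V at 0.22 and 0.23 TPM, from 22 and 17 counts.

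The transcript tables divide each gene among its transcripts. Among 27 members with at least 10 TPM and more than 1 transcript in the tables, the leading transcript was the same in both libraries for all 27, against 90.6% of the protein-coding genes chosen the same way. For 7 of the 27 the leader was a transcript not annotated as protein-coding, against a background of 27.8%. The 7 were Sdha, Cox6b2, Atp5a1, Atp5b, Atp5f1, Atp5g3 and Atp5h. In Atp5b a processed transcript of 343 bases held 94.7% of the gene's TPM in replicate 1 and 95.3% in replicate 2. It had 1466 TPM from 20543 counts in replicate 1 and 1955 TPM from 19160 counts in replicate 2. The protein-coding Atp5b transcript of 1916 bases had 81.5 TPM from 10703 counts and 95.4 TPM from 9523 counts. In TPM a short transcript weighs more for the same count, and the short form led here by count as well.

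The leaders of the other 6 genes were of several kinds. In Sdha a retained-intron transcript of 438 bases held 91.2% of TPM in replicate 1 and 94.2% in replicate 2, and the protein-coding transcript of 2900 bases had 3.13 and 2.26 TPM. In Atp5a1 a transcript of 774 bases annotated for nonsense-mediated decay held 85.7% and 86.6%. In Atp5h a processed transcript of 420 bases held 87.6% and 84.9%. The leaders of the other 3 held less. In Atp5f1 a retained-intron transcript of 2527 bases held 67.9% in replicate 1 and 53.2% in replicate 2, and in Atp5g3 a processed transcript of 770 bases held 58.6% and 47.8%. In Cox6b2 a retained-intron transcript of 519 bases held 51.5% and 47.8%. The Atp5f1 and Atp5g3 leaders are longer than the protein-coding transcripts with the most TPM, of 1604 and 714 bases. By counts in place of TPM, Cox6b2 no longer had the same leader in both libraries. Over all 45 members with at least 1 TPM, 6 had under 50% of their TPM on protein-coding transcripts in both libraries, against 19.2% of protein-coding genes. These were Sdha, Uqcc1, Atp5a1, Atp5b, Atp5f1 and Atp5h. The number of members with at least 100 TPM on protein-coding transcripts was 14, against a background of 3.26%, since Atp5a1 and Atp5b dropped out.

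**Figure D3:**
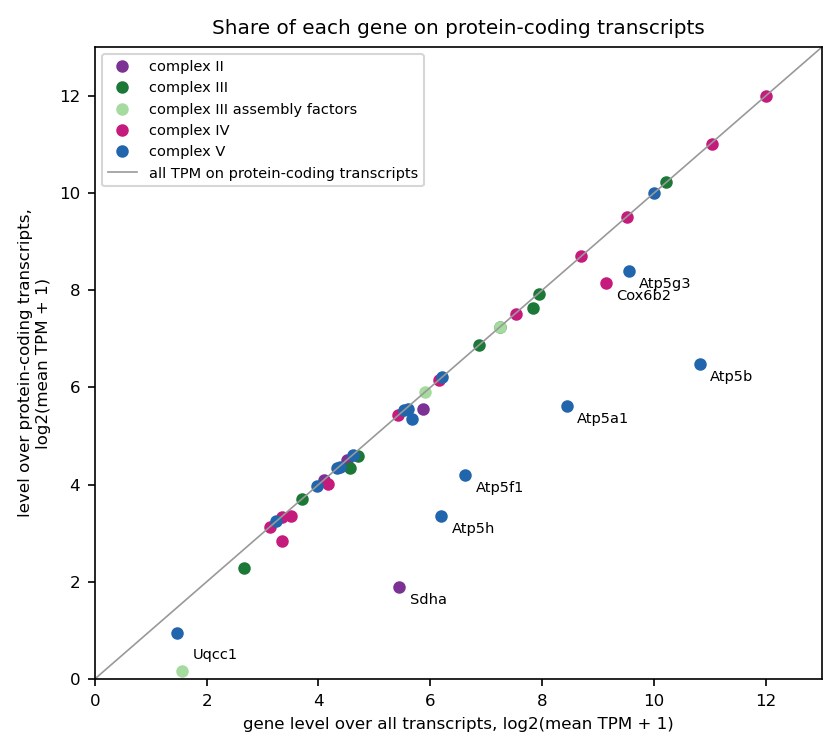
Level over transcripts annotated as protein-coding against level over all transcripts, both as log2(mean TPM + 1), for the members with a mean of at least 1 TPM, and the grey line marks equality. Most genes lie on the line, while Sdha, Atp5a1, Atp5b, Atp5f1, Atp5h and Uqcc1 lie furthest below it.

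Most members differed by less than 1.5-fold between the libraries. TMM-scaled counts were compared for the 46 members with at least 20 summed counts, with 1 library on each side and hence no test. The median log2 fold, replicate 1 over replicate 2, was 0.12 for the members and 0.02 for all 9551 genes compared. Replicate 1 was past 1.5-fold higher for 6 members, against 9.87% of all genes. Sdhc was the most different, with 1578 counts in replicate 1 and 340 in replicate 2, a fold of 3.39 (95% counting interval 3.01 to 3.82). Atp5g3 followed with 44475 and 15866 counts, a fold of 2.05 (2.01 to 2.09). The other 4 were Cox7a2 at 1.67-fold (1.41 to 1.99), Atp5h at 1.61-fold (1.48 to 1.74), Atp5k at 1.60-fold (1.43 to 1.80) and Atp5o at 1.51-fold (1.36 to 1.66). The counting intervals of these 4 include 1.5. Replicate 1 was lower past 1.5-fold for 1 member, Atp5mpl, against 4.18% of all genes. Atp5mpl had 165 counts in replicate 1 and 208 in replicate 2, a fold of 0.580 (0.470 to 0.715). As replicate 2 over replicate 1, its counting interval was 1.40 to 2.13, which also includes 1.5.

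The 9 genes of complex III and its 3 assembly factors stayed within 1.5-fold. Of all 9551 genes compared, 9.87% were past it with replicate 1 higher and 4.18% with replicate 1 lower. Most genes thus stayed within it, and the count is no result about complex III. Median log2 folds were -0.02 for complex III and 0.04 for its assembly factors. The myeloid markers moved with the libraries as well: Mpo had 0.19 TPM in replicate 1 and 3.96 in replicate 2, Elane 0.04 and 3.04 TPM, and Prtn3 0.08 and 3.76 TPM. Their part in the differences among the members was not tested.

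**Figure D4:**
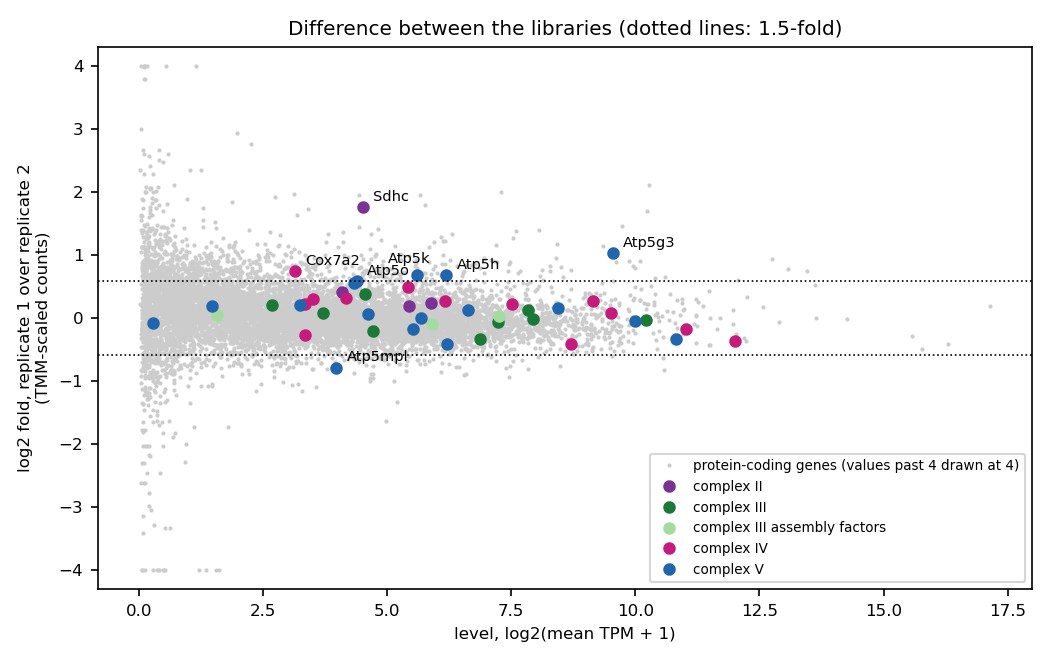
Log2 fold of TMM-scaled counts, replicate 1 over replicate 2, against level as log2(mean TPM + 1), for protein-coding genes (grey) and the 46 members compared (coloured by complex). Sdhc at 1.76 and Atp5g3 at 1.03 stand furthest above the upper dotted line, which like the lower one marks 1.5-fold, and Atp5mpl at -0.79 is the member below the lower one.

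Level moved with the base composition of the transcripts. Across the 45 members with at least 1 TPM, Spearman's rho between GC content and level was 0.42, and across all 7570 such genes it was 0.30. These are descriptions across genes of the same libraries, and genes are not independent replicates. In 5 equal bins of GC content set on all genes, the median member had 16.9, 22.6, 42.1, 151 and 718 TPM from low to high GC, from 5, 15, 10, 9 and 6 members. The median gene had 7.80, 9.82, 15.5, 22.8 and 33.8 TPM in the same bins. Cox6a1, at 60.8% GC, was in the highest bin, and Uqcrc2, at 46.9%, in bin 2 from the low end. Cox5a went against this order, with 46.2% GC and a mean of 730 TPM. The members are short, with a median effective length of 587 bases against 1779 for all such genes. GC content was the mean over a gene's annotated transcripts, which can differ from that of the transcript with the most TPM. The part of GC content and length in the differences between members was not tested beyond the adjusted values given above.

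**Figure D5:**
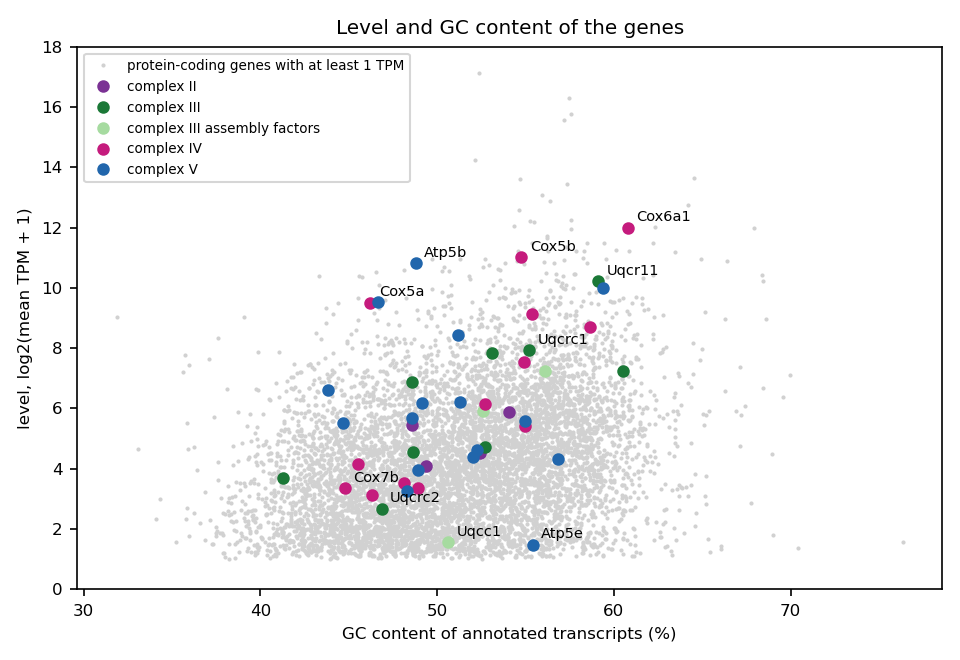
Level as log2(mean TPM + 1) against the mean GC content of a gene's annotated transcripts, for expressed protein-coding genes (grey) and the members (coloured by complex). High members such as Cox6a1 and Uqcr11 lie at high GC content, and Cox5a and Atp5b are drawn high at lower GC content. For Atp5b, the transcript with most of its TPM had 64.7% GC, against the drawn mean of 48.8%.

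Of the members, 9 had counts that were not whole, which shows that fragments were divided with another gene or copy. They were Cox5b, Cox6c, Cox7a2l, Cox7c, Atp5f1, Atp5g1, Atp5g2, Atp5h and Atp5l. A further tally found 9 members that overlap a protein-coding gene on the other strand, namely Cox4i1, Cox6a2, Cox6c, Uqcrb, Uqcrc2, Atp5a1, Atp5d, Atp5f1 and Atp5j. Atp5j overlaps Gabpa, the gene for the ETS factor GABPA, over 701 bases, and Gabpa had 3.02 TPM in replicate 1 and 2.65 in replicate 2. No source used here gives the strand setting of the counting, so reads of such pairs may not be told apart.

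Assembly factors outside the symbol pattern had a lower median than the members. Of 32 such genes, 27 reached 1 TPM in both libraries, and their median was 10.6 TPM in replicate 1 and 10.7 in replicate 2. For complex IV, 21 of 22 reached 1 TPM, and Cox17, the copper chaperone of the enzyme, was highest at 453 and 657 TPM. Cox14 had 88.8 and 94.1 TPM, and Coa7 was lowest at 0.25 and 0.54 TPM. Of 4 factors for complex II, Sdhaf1 had 14.0 TPM in replicate 1 and 15.6 in replicate 2, Sdhaf2, which helps attach the flavin to Sdha, 3.59 and 2.81 TPM, and Sdhaf3 0.08 and 0.05 TPM. Of 3 further factors for complex III, only Ttc19 reached 1 TPM, at 2.78 and 3.12 TPM. Bcs1l, which inserts the Rieske protein Uqcrfs1, had 0.57 TPM in replicate 1 and 0.32 in replicate 2, and Lyrm7, a chaperone of the same protein, 0.03 and 0.04 TPM. All 3 complex V factors reached 1 TPM over all transcripts, with Atpaf2 at 37.6 and 39.7 TPM, Tmem70 at 30.3 and 32.5 TPM and Atpaf1 at 15.6 and 16.5 TPM. On protein-coding transcripts Atpaf1 was highest of these, at 15.4 TPM in replicate 1 and 16.4 in replicate 2, with Tmem70 at 6.44 and 7.51 TPM and Atpaf2 at 1.37 and 0.79 TPM. Counts of Cox17 and Atpaf1 were not whole, so some of their fragments were divided with another gene or copy.

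The partners of these genes were uneven too. Cycs, the cytochrome c that complex III reduces and complex IV oxidises, had 1.04 TPM in replicate 1 and 2.12 in replicate 2. On protein-coding transcripts Cycs had 1.04 and 0.76 TPM. Cyct, its testis form, had 0 counts. Ndufa4, a complex IV subunit outside the symbol pattern, had 8.72 and 7.20 TPM. Of 6 subunits encoded in mitochondrial DNA, mt-Atp8 had 516 TPM in replicate 1 and 539 in replicate 2, mt-Cytb 463 and 589 TPM, and mt-Co3 0.26 TPM in both. Counts of Cycs, mt-Co3, mt-Co2, mt-Atp6 and mt-Co1 were not whole, so fragments were divided with another gene or copy, and these levels are uncertain. Among 9 regulators of mitochondrial genes, Yy1 had 102 and 115 TPM, Esrra 27.6 and 37.7 TPM, and Ppargc1a, the coactivator known from brown fat and muscle, 0 counts.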

How the data were processed

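Poly(A) RNA of 2 libraries, labelled biological replicates 1 and 2 of 1 group, was sequenced in paired-end mode, per the labels. The deposited expected counts are estimated fragments per gene or transcript. The deposited TPM values, per the file headers, are such counts over effective length, scaled to a common sum, and the deposited FPKM values are scaled by length and library size. The deposited percent is a transcript's share of its gene's TPM. Values refer to mm10 and GENCODE M4, per the deposited description files. Aligner, quantifier and strand setting are not given in the sources used.

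Names, gene types and GC content (the mean over a gene's transcripts) came from GENCODE M21, which matched 42462 of 43346 gene rows, so gene models may differ from the authors'. Promoters came from RefSeq, build GRCm38.p6, matched by symbol or, where absent, by synonym. The members, lists and pairs were chosen with earlier results of these data known. Gene pairs were fitted with limma 3.58.1 on log2(TPM + 1) over genes reaching 1 TPM, with the variances of both genes summed as if independent, at 95%. Folds on this scale understate differences of low genes. Libraries were compared on rounded counts with TMM scaling in edgeR 4.0.16, with exact binomial intervals. The pair fit and the fold step were tried on simulated data. Simulated errors were independent between genes, and the simulated folds held counting error only. Those runs therefore do not show how the intervals perform on these libraries. Totals of 73681318 and 56056404 counts set the precision. A count of 0 leaves room for 3 counts. Counts were called whole within 0.005.

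Named are members at or above their complex median, the lowest of each complex, all genes of the pairs, those past 1.5-fold, and the 2 highest and the lowest of each pathway list. The other members, Gabpa and the marker genes were chosen after seeing their values. Tried as alternatives were FPKM, posterior means, counts per kilobase, GC adjustment in 20 bins, the pseudocount, filters on low values, DESeq2 1.42.0 size factors or library totals, a 2-fold limit, and each library alone. Software was R 4.3.3 and Python 3.11.15, with pandas 2.3.3 and scipy 1.17.1.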

Additional observations from a re-analysis of the deposited data

How the results depend on the processing

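No paired analysis was possible because the series has 1 group. The counts of members at or above 1, 10 and 100 TPM stayed within 1.5-fold under all alternatives run. Levels over protein-coding transcripts were chosen after seeing the data. With them the median was 18.9 TPM for complex II and 23.7 TPM for complex V. Adjusted for GC content, the median was 65.2 TPM for complex III, 51.1 TPM for its assembly factors, 21.5 TPM for complex IV and 67.6 TPM for complex V, against 117, 59.1, 13.9 and 49.2 TPM. By counts per kilobase it was 61.0 TPM for the assembly factors and 42.1 TPM for complex V. Without members under 1 TPM it was 70.4 TPM for complex IV and 51.3 TPM for complex V. Of 96 recomputed pair ratios, 91 kept direction and call. Sdha over Sdhb was -0.42 (interval -0.90 to 0.05) without the filter on low values, -0.39 (-0.81 to 0.02) on posterior means and 0.45 after GC adjustment. Cox5a over Cox5b was -0.27 after GC adjustment, and Sdhc over Sdhd -0.51. Where only 1 library was used, Sdhc over Sdhd ranged from -0.32 to 0.78 and Cox7a2l over Cox7a2 from -0.20 to 0.68. The cause was not tested. Past 2-fold, replicate 1 was higher for 2 members and lower for 0. With no minimum of counts it was lower for 2, since Cox6a2, with 3 and 4 counts, entered.

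With 2 libraries in 1 group, the intervals rest on spread shared across genes. Forms below the floor of 3 counts were not detectable at this depth. Levels depend on how fragments were divided among transcripts.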
